A study of Mus musculus with 32 samples.

Results

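A group of 10 genes that mark T cells and natural killer (NK) cells was followed through the libraries of a mouse stroke study: Cd3d, Cd3e, Cd3g, Cd2, Cd8a, Cd4, Lck, Nkg7, Gzma and Gzmb. They are 10 of the 33280 genes in the count tables and were found there by their row names. They were chosen by name as T and NK cell genes, with the counts and contrasts of these same libraries already known, so their levels are given as a description. No threshold on a measured value decided which gene was taken.

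T cells recognise antigen through a receptor that signals through the CD3 chains, and the coreceptors CD4 and CD8 bring the kinase Lck to that complex. NK cells lack this receptor and, like cytotoxic T cells, kill target cells with granules that hold granzymes. Both cell types are rare in the healthy brain, sit mostly in its meninges and vessels, and can enter the tissue after ischemia.

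Wild-type C57BL/6JCrl mice of both sexes received either the vehicle alone (CTL) or 200 mg per kg of BLZ945, an inhibitor of the CSF1 receptor that depletes brain macrophages, on 7 consecutive days. A clot in the middle cerebral artery caused a stroke 8 weeks later, and material was taken 1 day after stroke from the injured (ipsilateral) and the opposite (contralateral) hemisphere. Bulk RNA was sequenced from whole tissue and from CNS-associated macrophages, called sdCAM here, which were sorted from brain without choroid plexus. The sort kept cells negative for Ly6C, Ly6G and CD11c and positive for CD45, CD11b and CD206. The CTL mice were A2, A3, A4 and B1 and the BLZ945 mice C2, C3, C4 and D1, each giving tissue and sdCAM from both hemispheres, and the labels do not give their age. The study's methods put the first gavage of its mice in general at 10 ± 3 weeks of age. The study's methods mention pooled cells of BLZ945 mice in a passage that covers several sorts, and the labels do not say whether these libraries are among them.

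The 16 tissue libraries held 9288717 to 12781505 counts each, and 14 sdCAM libraries held 7397393 to 11081409. Another 2 sdCAM libraries, A3 ipsilateral with 54055 counts and C2 ipsilateral with 55155, are the shallow ones of a study whose labels report degraded RNA in 2 samples. Each of the 10 genes had 0 to 2 counts in them, where 3 counts already equal 54.4 to 55.5 CPM, the count divided by its library's size in units of 1e6 counts, and both libraries were left out. Each tissue group therefore had 4 mice, while sdCAM had 4 mice in each contralateral and 3 in each ipsilateral group. A count of 3, taken as the floor below which a level was not detectable, equals 0.234 to 0.321 CPM across the tissue libraries and 0.253 to 0.389 CPM across the sdCAM libraries. Floors cover counting error only, since amplified reads without molecular identifiers are not independent molecules. The standard errors (SE) and the 95% interval of edgeR fold changes also include the spread between libraries. CPM here uses library sizes scaled by edgeR's TMM factors, separately in each table.

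The sdCAM label was checked against marker genes. Mrc1, which encodes CD206, stood at 344 to 2819 CPM in the 14 libraries, and Cd163, another border macrophage gene, at 56.6 to 992 CPM. Ptprc, which encodes CD45, stood at 188 to 923 CPM. The microglia gene P2ry12 was also high, at 1118 to 7003 CPM, so the macrophage markers are present but not alone. The gate required CD206, a macrophage marker not typical of T or NK cells, and CD11b, which most T cells lack. It names no CD3 or NK cell antigen, and whether a CD3e antibody among the study's flow cytometry reagents was used in this sort is not stated.

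In whole tissue, 8 of the 10 genes were at or near the limit of detection. Over all 16 libraries, Cd3d, a CD3 chain, summed to 8 counts, and its fellow chains Cd3e and Cd3g summed to 10 and 4. Cd2, an adhesion receptor, summed to 15 counts, and Cd8a, the alpha chain of the CD8 coreceptor, to 9. No tissue library held more than 4 counts of any of these 5 genes. Nkg7, a protein of cytotoxic granules, summed to 15 counts with 6 in A2 ipsilateral as its highest, and Gzma, which encodes granzyme A, to 9 counts with 3 as its highest. Gzmb, which encodes granzyme B, had 0 counts in 16 of 16 tissue libraries, which allows a level of up to 0.234 to 0.321 CPM in each. Differences between groups in these 8 genes were not detectable at this depth.

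Lck, the kinase that starts T cell receptor signalling, was seen in every tissue library. It had 9 to 32 counts and a level of 0.941 to 2.83 CPM, lowest in C3 contralateral and highest in A4 ipsilateral. The ipsilateral level was the higher in 2 of 4 CTL mice and in 2 of 4 BLZ945 mice by log2 level, and the groups overlapped.

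Cd4, the coreceptor of helper T cells, was the most abundant of the 10 genes in tissue, at 18 to 467 counts. In the CTL mice its level, contralateral then ipsilateral, was 1.43 and 5.93 CPM in A2, 11.5 and 25.04 CPM in A3, 48.2 and 36.1 CPM in A4, and 12.2 and 7.17 CPM in B1. In the BLZ945 mice it was 17.04 and 13.03 CPM in C2, 13.6 and 32.8 CPM in C3, 36.1 and 43.0 CPM in C4, and 12.5 and 28.1 CPM in D1. A4 and C4 were high on both sides, A2 was the lowest mouse on both, and the 4 groups overlapped. The ipsilateral minus contralateral log2 fold change was 0.03 (SE 0.71) in CTL and 0.55 (SE 0.70) in BLZ945, smaller than its error in both of these unpaired fits. With the hemispheres paired by mouse it was 0.26 (SE 0.31) in CTL and 0.58 (SE 0.28, edgeR adjusted p 0.347) in BLZ945. Over the alternatives the CTL value ran from -0.51 to 0.62 and the BLZ945 value from 0.34 to 0.78, with adjusted p no lower than 0.907 and 0.347.

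A search over 14317 genes, added after the Cd4 values had been seen, ranked the genes whose log2 tissue level ran most like that of Cd4. Rgs9, a regulator of G protein signalling abundant in striatal neurons, came highest, with a Pearson r of 0.97, a Spearman rho of 0.97, and an r of 0.98 without A2 contralateral and A4 contralateral, the 2 libraries farthest from the Cd4 median. Its own level ran from 24.2 to 298 CPM. Ppp1r1b, a phosphatase inhibitor abundant in the same neurons, came next with r 0.97, rho 0.99 and r 0.96 without those libraries. Drd2, a dopamine receptor, had r 0.96, rho 0.98 and r 0.98 without them, and Rasd2 and Ptpn7 followed with r 0.96 and 0.95. The points are 16 libraries from 8 mice, so the hemispheres of a mouse share an animal. The labels do not say how much of each tissue library came from the striatum, and its part in the Cd4 level was not tested. The same ranking for the summed CD3 chains in tissue, led by Piezo2 at r 0.81, rests on at most 6 summed counts a library and is no finding.

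The first question is whether the genes differ between the injured and the opposite hemisphere of tissue. Calls required both a log2 fold change beyond 0.59 in size and, from edgeR's quasi-likelihood test over the whole table, a p below 0.05 after Benjamini-Hochberg adjustment. Of the 10 genes, 8 passed the filter on low counts in tissue (18968 genes tested in all), and Cd3g and Gzmb did not. In CTL mice, 0 of the 8 were called by edgeR and 0 by DESeq2, against 0.443% of all genes tested, where this and each later share of all genes is edgeR's. At an unadjusted p below 0.05, edgeR had 1 of the 8, Nkg7, against 6.23% of all genes, and DESeq2 had 0. In BLZ945 mice, 0 of 8 were called by either tool, against 1.16% of all genes, with 1 gene, Cd2, below an unadjusted 0.05 with edgeR and 0 with DESeq2. With both treatments averaged, 0 of 8 were called by either tool, against 2.01%, with 1 gene, Nkg7, below 0.05 with edgeR and 0 with DESeq2. Of all genes, edgeR had 10.8% below an unadjusted 0.05 in BLZ945 and 14.3% averaged. The Nkg7 and Cd2 values rest on at most 6 and 4 counts in a library.

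Comparisons that involve the treatment gave no gene called by edgeR in tissue, and DESeq2 called 0 genes of the whole table for the interaction, 1 ipsilaterally and 0 contralaterally. For the interaction, which is the BLZ945 hemisphere difference minus the CTL one, 0 of 8 were called by edgeR or DESeq2, against 0% of all genes by edgeR, with 1 gene (Cd2) at an unadjusted p below 0.05 in edgeR and 0 in DESeq2. For BLZ945 against CTL in the ipsilateral hemisphere, 0 of 8 were called by either tool, against 0% by edgeR, and 0 reached an unadjusted 0.05 with either. For the contralateral hemisphere, 0 of 8 were called by either tool, against 0% by edgeR, with 1 gene (Cd2) below 0.05 in edgeR and 0 in DESeq2. Of all genes, edgeR had 2.04% below an unadjusted 0.05 for the interaction, 4.52% ipsilaterally and 3.25% contralaterally.

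In the sdCAM libraries all 10 genes were detected, and all 10 passed the filter. Of the 10, 8 had counts above the floor in 14 of 14 libraries. Gzma had 0 counts in 2 libraries, A4 ipsilateral and C3 ipsilateral, and Cd4 had 0 counts in C4 contralateral and 1 count in C3 contralateral. The summed level of the 10 genes ran from 139 CPM in A4 ipsilateral through a median of 223 CPM to 493 CPM in A2 contralateral. In these bulk samples, fewer cells of a type and less RNA per cell cannot be told apart. The tissue and sdCAM tables were normalized separately, so their levels are set side by side and not tested against each other.

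**Figure D1:**
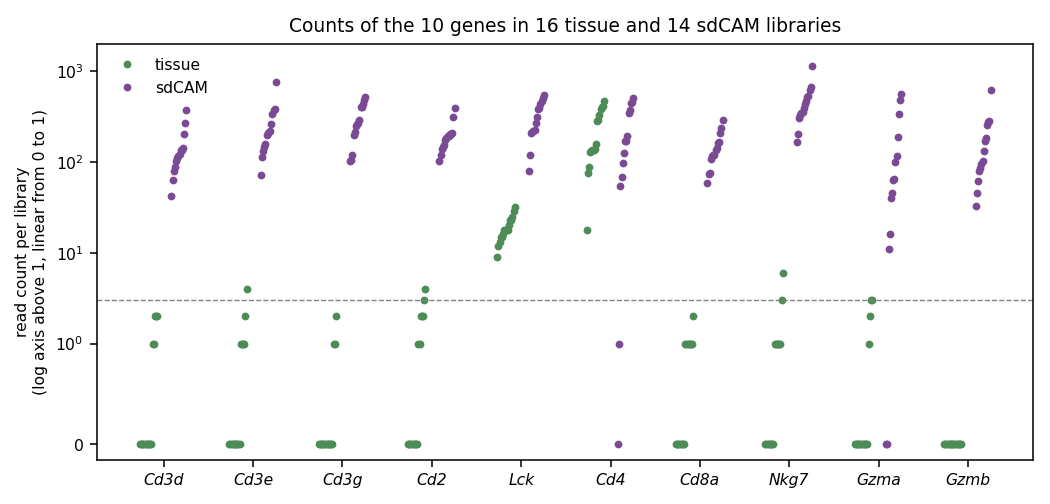
Read count of each of the 10 genes in the 16 tissue libraries (green) and the 14 sdCAM libraries (purple), on an axis that is logarithmic above 1 and linear from 0 to 1, with each point a library and the dashed line at 3 counts. In tissue only Lck and Cd4 lie above the line throughout, while Gzmb is at 0 in every tissue library.

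Between genes, levels were compared per kilobase of merged exons of GENCODE M21. In sdCAM the mean level was highest for Nkg7 at 54.5 CPM per kb. Gzma at 14.4, Gzmb at 12.6, Cd2 at 11.9 and Lck at 11.7 CPM per kb came next, close together beside the spread over libraries. Cd3g stood at 9.51, Cd3d at 8.25, Cd3e at 6.56, Cd4 at 5.75 and Cd8a at 4.26 CPM per kb, with neighbours again closer than their spread. In tissue the order began with Cd4 at 5.33 CPM per kb and Lck at 0.603, and the other 8 genes stood at 0 to 0.0918 CPM per kb. The tables were scaled apart, so these orders are read within a table only.

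The CD3 chains carry the signal of the T cell receptor, and Cd3e, the epsilon chain that pairs with the gamma and the delta chain, had a hemisphere difference of the same sign in every complete mouse of a treatment. In CTL mice its sdCAM level, contralateral then ipsilateral, was 71.3 and 27.8 CPM in A2, 31.3 and 9.21 CPM in A4, and 23.3 and 16.95 CPM in B1, and A3 contralateral had 19.4 CPM. In BLZ945 mice it was 14.98 and 31.6 CPM in C3, 11.5 and 16.6 CPM in C4, and 34.7 and 39.4 CPM in D1, and C2 contralateral had 26.6 CPM. The ipsilateral side was lower in 3 of 3 CTL mice and higher in 3 of 3 BLZ945 mice, yet the groups overlapped in both treatments. The log2 fold change was -1.01 in CTL (SE 0.55, edgeR adjusted p 0.333) and 0.41 in BLZ945 (SE 0.53, adjusted p 0.702). Scaled to leukocyte genes, an alternative described with the scaling results, the BLZ945 value was -0.33, so its sign changed. There the median of all genes moved from -0.15 to -1.02. A change of scaling shifts all genes nearly alike, so the place of Cd3e against that median tests nothing.

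Cd3d, the delta chain, ranged from 5.45 CPM in A4 ipsilateral to 34.9 CPM in A2 contralateral. It was lower on the ipsilateral side in 3 of 3 CTL mice and higher there in 2 of 3 BLZ945 mice. Cd3g, the gamma chain, ranged from 10.3 CPM in C4 contralateral to 53.1 CPM in D1 ipsilateral, lower ipsilaterally in 2 of 3 CTL mice and higher in 3 of 3 BLZ945 mice. Summed, the 3 chains stood at 87.6 ± 44.0 CPM (SD, n = 4) in CTL contralateral and 57.8 ± 34.4 CPM (n = 3) in CTL ipsilateral. In BLZ945 the sum was 64.4 ± 29.9 CPM (n = 4) contralaterally and 79.3 ± 38.1 CPM (n = 3) ipsilaterally. These 4 ranges overlapped, and the spread within each group was as large as the distance between group means.

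Cd4 ranged from 0 to 56.0 CPM in sdCAM. In CTL mice its level, contralateral then ipsilateral, was 43.4 and 21.6 CPM in A2, 29.1 and 48.6 CPM in A4, and 56.0 and 48.5 CPM in B1, and A3 contralateral had 12.3 CPM. In BLZ945 mice it was 0.103 and 8.29 CPM in C3, 0 and 12.3 CPM in C4, and 19.9 and 17.4 CPM in D1, and C2 contralateral had 6.96 CPM. On the ipsilateral side the 3 BLZ945 libraries lay below the 3 CTL libraries, while on the contralateral side D1 of the BLZ945 mice lay above A3 of the CTL mice. Group means were 35.2 ± 18.8 CPM (SD, n = 4) and 39.6 ± 15.6 CPM (n = 3) for CTL contralateral and ipsilateral. For BLZ945 they were 6.74 ± 9.36 CPM (n = 4) and 12.7 ± 4.57 CPM (n = 3).

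BLZ945 minus CTL, the Cd4 log2 fold change was -2.38 contralaterally (SE 1.07, unadjusted p 0.0409, edgeR adjusted p 0.759) and -1.64 ipsilaterally (SE 1.20, adjusted p 0.913). Over the alternatives listed in the processing summary, the contralateral value ran from -3.93 to -1.97, with the adjusted p no lower than 0.578. The contralateral fit depends on C3 and C4, which held 1 and 0 counts of Cd4. Cd8a, the other coreceptor, ran from 7.65 CPM in A4 ipsilateral to 30.0 CPM in C2 contralateral, with overlapping groups and an ipsilateral minus contralateral log2 fold change of -0.44 in each treatment (SE 0.54 in both). Over the alternatives the Cd8a difference ran from -1.01 to -0.26 in CTL and from -1.34 to -0.11 in BLZ945, lowest in both under the leukocyte scaling.

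Dendritic cells of the mouse can also carry CD4 or CD8, so their markers were read beside these coreceptors, although the sort kept cells negative for CD11c, which most dendritic cells carry. Summed over 10 dendritic cell genes, of which Siglech was the most abundant and is also a microglia gene, the sdCAM level was 1452 ± 135 CPM in CTL contralateral and 974 ± 214 CPM in BLZ945 contralateral. Ipsilaterally it was 1759 ± 431 CPM in CTL and 1347 ± 373 CPM in BLZ945. Clec9a had a count in 5 and Xcr1 in 8 of the 14 libraries. Mean sums of other lists also differed between the contralateral groups, where edgeR called 0 genes of the whole table. Microglia genes summed to 17324 ± 2189 CPM in CTL and 10460 ± 2947 CPM in BLZ945. Macrophage identity genes summed to 10578 ± 3764 and 7141 ± 2664 CPM, and neutrophil genes to 554 ± 235 and 2159 ± 1338 CPM. The groups overlapped for the macrophage and neutrophil sums and not for the microglia sum. C4 contralateral, with 0 counts of Cd4, was the lowest library for macrophage, microglia, leukocyte and CD3 genes. It was the highest for neutrophil and red blood cell genes. The part of any of these cells in the Cd4 level was not tested.

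Lck and Cd2 act with the receptor, Lck as its kinase and Cd2 in adhesion. Lck ranged from 10.2 CPM in A4 ipsilateral to 69.1 CPM in A2 ipsilateral, and its ipsilateral level was higher in 2 of 3 CTL and 2 of 3 BLZ945 mice. Cd2 ranged from 13.4 CPM in A4 ipsilateral to 37.2 CPM in A2 contralateral, and it was lower ipsilaterally in 3 of 3 CTL mice. Neither gene separated any of the 4 groups.

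Among the effectors, Gzmb followed the same signs as Cd3e. In CTL mice it stood, contralateral then ipsilateral, at 26.1 and 16.4 CPM in A2, 14.5 and 4.28 CPM in A4, and 28.1 and 10.9 CPM in B1, and A3 contralateral had 17.6 CPM. In BLZ945 mice it stood at 8.27 and 10.5 CPM in C3, 4.64 and 7.78 CPM in C4, and 28.8 and 64.3 CPM in D1, and C2 contralateral had 11.9 CPM. D1 was far above C3 and C4 on both sides, and the ipsilateral side was lower in 3 of 3 CTL mice and higher in 3 of 3 BLZ945 mice, with overlapping groups. The log2 fold change was -1.03 in CTL (SE 0.76, edgeR adjusted p 0.481) and 1.04 in BLZ945 (SE 0.73, adjusted p 0.420). Without D1 the BLZ945 value was 0.14 (adjusted p 0.958), and over all alternatives it ran from 0.14 to 1.25 with adjusted p no lower than 0.411.

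Gzma was uneven. In CTL mice it stood, contralateral then ipsilateral, at 52.2 and 8.03 CPM in A2, 0.928 and 0 CPM in A4, and 12.8 and 4.94 CPM in B1, with 46.6 CPM in A3 contralateral. In BLZ945 mice it stood at 6.72 and 0 CPM in C3, 9.99 and 2.01 CPM in C4, and 19.4 and 34.4 CPM in D1, with 5.07 CPM in C2 contralateral. Ipsilateral levels were lower in 3 of 3 CTL mice and in 2 of 3 BLZ945 mice, D1 being the exception, and the groups overlapped. The CTL log2 fold change was -2.70 with an SE of 1.58 (edgeR adjusted p 0.368), and the 0 in A4 ipsilateral allows up to 0.389 CPM there.

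Nkg7 was the most abundant of the 10 genes per kilobase in sdCAM. In CTL mice it stood, contralateral then ipsilateral, at 107.5 and 84.3 CPM in A2, 44.4 and 26.3 CPM in A4, and 47.3 and 18.03 CPM in B1, with 45.4 CPM in A3 contralateral. In BLZ945 mice it stood at 36.9 and 40.1 CPM in C3, 40.1 and 38.7 CPM in C4, and 35.8 and 64.0 CPM in D1, with 68.0 CPM in C2 contralateral. A2 was high on both sides, the ipsilateral side was lower in 3 of 3 CTL mice, and the groups overlapped. The log2 fold change was -0.51 in CTL (SE 0.48) and 0.08 in BLZ945 (SE 0.48).

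**Figure D2:**
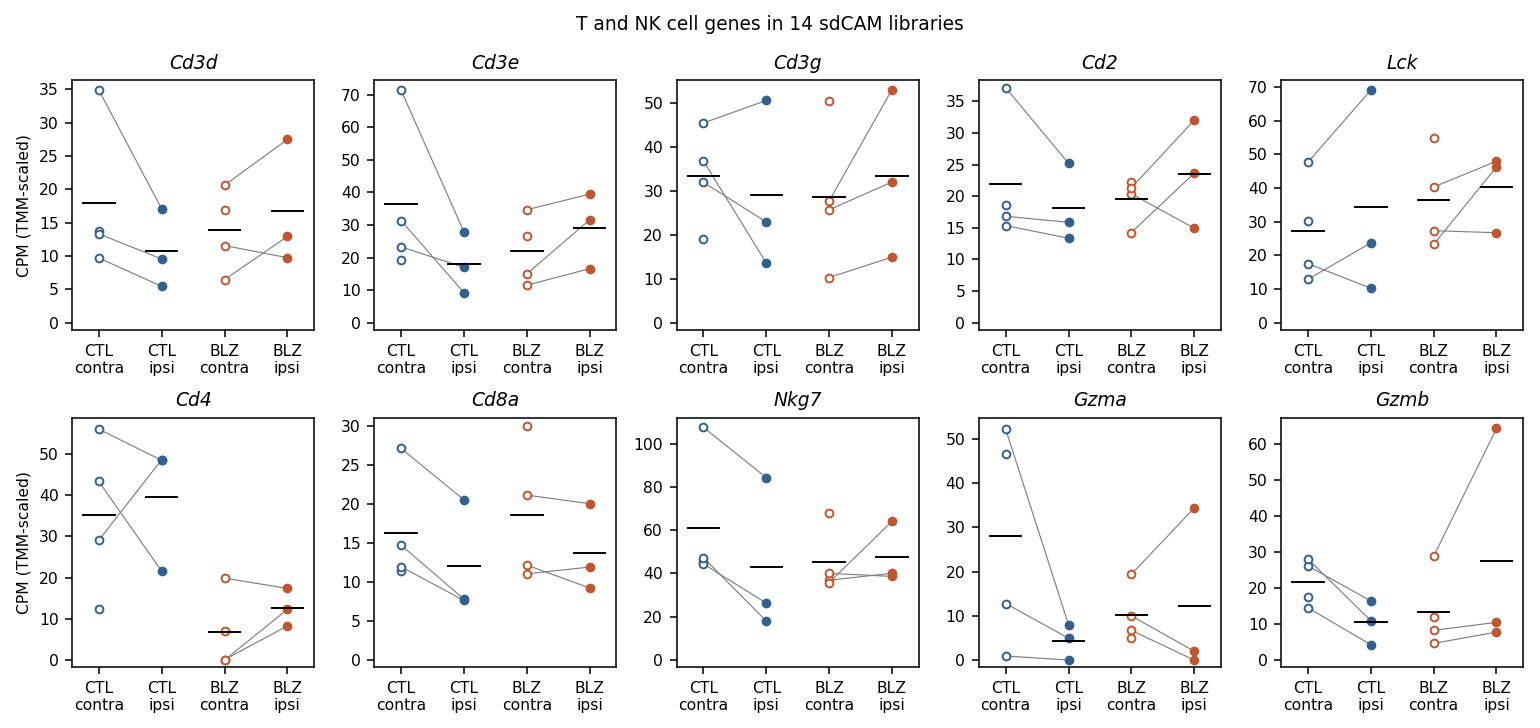
TMM-scaled CPM of the 10 genes in the 14 sdCAM libraries by group (CTL in blue, BLZ945 in orange; open circles contralateral, filled circles ipsilateral), with gray lines joining the hemispheres of a mouse and black bars at group means. Lines for Cd3e and Gzmb slope down in all 3 CTL mice and up in all 3 BLZ945 mice, and the groups overlap, although on libraries scaled to leukocyte genes the fitted BLZ945 difference of Cd3e is -0.33, where the median of all genes is -1.02.

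Over the whole sdCAM table of 18297 tested genes, none of the hemisphere differences in these genes passed the test. In CTL mice, 0 of 10 were called by edgeR and 0 by DESeq2, against 2.79% of all genes. At an unadjusted p below 0.05, edgeR had 0 and DESeq2 had 1, Cd3e. The median log2 fold change of the 10 was -0.48, with 2 above and 8 below 0, beside -0.11 for all genes. In BLZ945 mice, 0 of 10 were called by either tool, against 5.61% of all genes, and 0 reached an unadjusted 0.05 with either. There the median of the 10 was 0.25, with 9 above and 1 below 0, beside -0.15 for all genes. With both treatments averaged, 0 of 10 were called by either tool, against 15%, and 0 reached an unadjusted 0.05 with either. The averaged median was -0.11 for the 10 genes and -0.16 for all genes. Of all genes, edgeR had 18.3% below an unadjusted 0.05 in CTL, 22.3% in BLZ945 and 31.5% averaged.

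Whether the hemisphere difference itself depends on the earlier depletion was asked by the interaction. In sdCAM, 0 of 10 genes were called by edgeR or DESeq2, against 0% of all genes by edgeR and 48 genes by DESeq2, and at an unadjusted p below 0.05 edgeR had 0 and DESeq2 had 1, Gzmb. The interaction was 1.42 on the log2 scale for Cd3e (SE 0.76, 95% interval -0.06 to 2.91, unadjusted p 0.0794, edgeR adjusted p 0.998). For Gzmb it was 2.07 (SE 1.06, unadjusted p 0.0686, adjusted p 0.998). Both differences failed the correction. These genes were picked from the 10 for their opposite signs in the 6 mice with both hemispheres, and how many of all genes have such signs was not counted. For BLZ945 against CTL in the ipsilateral hemisphere, 0 of 10 were called by either tool, against 0% of all genes by edgeR and 123 genes by DESeq2, and 0 reached an unadjusted 0.05 with either. For the contralateral hemisphere, 0 of 10 were called by either tool, against 0% by edgeR and 39 genes by DESeq2, with 1 gene, Cd4, below an unadjusted 0.05 in both tools. Of all genes, edgeR had 4.98% below an unadjusted 0.05 for the interaction, 5.65% ipsilaterally and 6.19% contralaterally.

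The hemispheres of a mouse can also be compared within the animal. With the mouse as a replicate block, which leaves the 3 complete mice of each treatment to carry the hemisphere contrast, Cd3e in CTL was -1.19 (SE 0.43, edgeR adjusted p 0.249). Over all alternatives its lowest adjusted p in CTL was 0.0938. The paired value was -1.26 (SE 0.52, adjusted p 0.330) for Gzmb and -0.83 (SE 0.31, adjusted p 0.270) for Nkg7, with lowest values of 0.206 and 0.190 over the alternatives. The paired interaction was 1.79 (SE 0.60) for Cd3e and 2.01 (SE 0.73) for Gzmb, with an adjusted p of 1 for each and no lower than 0.974 and 0.972 over the alternatives. For Cd4 in BLZ945 the unpaired value was 0.91 (SE 1.10, adjusted p 0.678), and over the alternatives it ran from 0.35 to 3.92. The highest is the paired value (adjusted p 0.169, the lowest over the alternatives), which rests on the 0 and 1 counts of C4 and C3 contralateral. In this paired fit edgeR called 0 of 10 genes in any of the 4 sdCAM comparisons it covers. Of all genes it called 293 in CTL, 949 in BLZ945, 1843 averaged and 0 for the interaction. At an unadjusted p below 0.05 it had 3 genes in CTL (Cd3e, Gzmb and Nkg7), 1 in BLZ945 (Cd4), 1 averaged (Gzma) and 4 for the interaction (Cd3e, Cd4, Gzmb and Nkg7), where the unpaired fit had 0 in each. How many of all genes had such a p in the paired fit was not counted. In the unpaired fit they were 18.3% in CTL, 22.3% in BLZ945, 31.5% averaged and 4.98% for the interaction.

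Scaling matters here because most called sdCAM genes were lower on the ipsilateral side. With library sizes set from the summed counts of 6 genes expressed by all leukocytes (Ptprc, Coro1a, Laptm5, Cd52, Rac2 and Itgb2), an alternative chosen after seeing the data, the median of all genes in the averaged comparison moved from -0.16 to -0.90. Under it 3 of the 10 genes were called lower by edgeR in that comparison, against 30.8% of all genes. They were Cd3e at -0.94 (adjusted p 0.0499), Cd8a at -1.18 (adjusted p 0.0407) and Nkg7 at -0.93 (adjusted p 0.0479), each near the shift of all genes. Over their other alternatives none of the 3 was called. Of all genes called there, 20 were higher and 5613 lower ipsilaterally. Under the same scaling the median of all genes was -0.74 in CTL and -1.02 in BLZ945. With that shift, 8 of the 10 BLZ945 differences lay below 0, among them Cd3d at -0.45, Cd3g at -0.50, Cd2 at -0.60 and Lck at -0.67, while Cd4 at 0.35 and Gzmb at 0.40 kept their sign. The Lck and Cd4 differences in CTL turned to -0.31 each.

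Within the sdCAM libraries the members ran together to different degrees. The Pearson r of log2 levels over 14 libraries was 0.85 for Cd3d with Cd3e, 0.81 for Cd3e with Cd3g and 0.73 for Cd3d with Cd3g. Against the summed CD3 chains, r was 0.81 for Gzmb (rho 0.75, 0.66 without the 2 farthest libraries), 0.76 for Cd2 (rho 0.76, 0.89 without) and 0.74 for Nkg7 (rho 0.73, 0.80 without). Lck had r 0.65, Gzma 0.44, Cd8a 0.36 and Cd4 0.36. Over all pairs of single members r ran from -0.23 for Cd8a with Cd4 to 0.85 for Cd3d with Cd3e, and the next highest was 0.83 for Cd3d with Gzmb. The farthest libraries were C4 contralateral and A4 ipsilateral, and the 14 points come from 8 mice, 6 of them with both hemispheres. Cd4 moved apart from the CD3 chains, and without C3 and C4 contralateral its r with Cd3e was -0.11.

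Other genes followed the CD3 chains more closely than Cd4 or Cd8a did. Of 13828 genes, those most like the summed CD3 chains, members aside, were Gimap4, a GTPase of lymphocytes (r 0.93, rho 0.93, 0.88 without the 2 farthest libraries), and H2-Q7, a class I antigen gene (r 0.91, rho 0.95, 0.91 without). They were followed by Fasl, the Fas ligand of killer cells (r 0.91, rho 0.90, 0.84 without), and Trbc2, a constant chain of the T cell receptor (r 0.90, rho 0.92, 0.90 without). Bcl11b, a T cell transcription factor, came next (r 0.88, rho 0.87, 0.79 without). Most like Cd4 was Igf2bp2, an RNA-binding protein, with r 0.93 and rho 0.79. Its r dropped to 0.64 without C3 and C4 contralateral, so it rests in part on those libraries. Zfp764, Ptpre, Qng1 and Limk1 followed Cd4 with r 0.91, 0.89, 0.87 and 0.87, and with 0.50, 0.78, 0.49 and 0.44 without those libraries.

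The wider T cell receptor list had 27 genes, of which 24 are in these row names (Trac, Trbc1 and Trdc were not analysed) and 23 were tested in sdCAM. Trbc2 ran from 10.5 to 65.5 CPM in sdCAM, Cd8b1, the beta chain of CD8, from 8.85 to 38.0 CPM, and Cd247, the zeta chain, from 0 to 23.3 CPM. The most abundant were Lcp2 and Fyn, signalling genes that other leukocytes also express. As a measure for this and the later lists, edgeR called 2.79% of all sdCAM genes in CTL, 5.61% in BLZ945 and 15% averaged. In tissue the shares were 0.443%, 1.16% and 2.01% in the same order. None of the 23 was called by edgeR in CTL or BLZ945 sdCAM. Averaged, 1 was called, Lcp2 at 0.81 (SE 0.24, adjusted p 0.0321), and the list median was 0.04 beside -0.16 for all genes. In tissue 0 of 22 were called in either treatment and 1 when averaged, Lcp2 at 0.98 (adjusted p 0.00475), and the median was -0.01 for the list and for all genes. Tissue sums of this list, 1519 to 2021 CPM, were led by Thy1, Rasgrp1 and Fyn, which neurons express too.

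Of 22 genes for T cell identity, homing and cytokine receptors, all tested in sdCAM, 1 was called lower in CTL. This gene, S1pr1, the receptor that guides lymphocytes out of lymph nodes and is also high in endothelium, fell by 1.71 on the log2 scale (SE 0.29, adjusted p 0.00712). In BLZ945 S1pr1 was again the 1 gene called lower, at -1.69 (adjusted p 0.00422). Averaged, S1pr1 (-1.70) and Lef1 (-2.56, adjusted p 0.00897) were called lower, with a list median of 0.01. Foxp3, the factor of regulatory T cells, had counts in 7 of 14 sdCAM libraries and reached 4.72 CPM. In tissue, 0 of 20 were called in either treatment, and Pdcd1, a checkpoint receptor, was among those called when averaged, at 2.998 (adjusted p 0.0363) on 0 to 12 counts.

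The list of 31 NK and cytotoxic effector genes had 0 called of 31 tested in CTL, BLZ945 and averaged sdCAM comparisons. Its median log2 fold change was -0.86 in CTL, 0.55 in BLZ945 and -0.28 averaged, beside -0.11, -0.15 and -0.16 for all genes. Ncr1, the NK cell receptor NKp46, ran from 0 to 13.2 CPM, Klrb1c from 3.14 to 27.7 CPM and Prf1, which encodes perforin, from 2.01 to 20.9 CPM. The sum of the list was led by Fcer1g and Tyrobp, adaptor genes that macrophages express, and by Ccl5. In tissue 18 of 31 were tested and 1 was called, Fcer1g, at 0.75 in CTL (adjusted p 0.0445), 0.74 in BLZ945 (adjusted p 0.0231) and 0.75 averaged (adjusted p 0.000698). With the hemispheres of A3 tissue exchanged, 0 genes of the whole table were called in CTL, so the CTL call was lost. Whether the other tissue calls of these lists stayed was not counted.

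Of 8 listed chemokines that attract T cells, 7 are in these row names (Cxcl11 was not analysed) and 5 were tested in tissue. There edgeR called 1 of 5 in CTL, Cxcl10, and 2 of 5 in BLZ945 and averaged, Cxcl10 and Cxcl16. Of all genes in tissue it called 0.443% in CTL, 1.16% in BLZ945 and 2.01% averaged. Cxcl10, a ligand of CXCR3, a chemokine receptor found on T cells, stood at 0.152 ± 0.187 CPM contralaterally and 2.26 ± 0.630 CPM ipsilaterally in CTL tissue (SD, n = 4), and at 0.512 ± 0.386 and 5.10 ± 1.496 CPM in BLZ945 tissue. Ipsilateral and contralateral libraries did not overlap in either treatment, at counts of 0 to 72. Its log2 fold change was 3.77 in CTL (SE 0.58, edgeR adjusted p 0.00426) and 3.31 in BLZ945 (adjusted p 0.00158). Cxcl16 rose by 1.75 in BLZ945 tissue (adjusted p 0.0321) and by 1.496 averaged (adjusted p 0.00443). How many tissue genes are called depends on the hemisphere of the A3 libraries, which the labels and the column names of the table give differently. Read by the labels, A3 had its higher Cxcl10 level ipsilaterally, as the other CTL mice did. With A3 exchanged, 0 genes of the whole table were called in CTL, 6 in BLZ945 and 1 averaged, from 84, 220 and 381. With A3 exchanged and the hemispheres paired by mouse, 0, 185 and 146 were called, from 185, 414 and 459 paired without the exchange. In sdCAM, of 6 tested, Cxcl16 rose in CTL (1.05), BLZ945 (1.03) and averaged (1.04), and Cxcl12, a chemokine of vessels and meninges, was called at -2.76, -1.81 and -2.29.

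Markers of other cells moved between the same sdCAM libraries. The list of 10 neural and glial genes had Mbp and Cldn5 among its most abundant, and Cldn5 is a gene of vessel endothelium. The 10 genes summed to 3264 ± 1422 CPM in CTL contralateral and 400 ± 150 CPM in CTL ipsilateral. In BLZ945 they summed to 1732 ± 929 and 147 ± 49.4 CPM. Of these 10, 6 were called lower ipsilaterally when averaged, among them Cldn5 at -4.26. The 10 macrophage identity genes, led by Csf1r, went the other way, at 10578 and 16553 CPM in CTL and 7141 and 17278 CPM in BLZ945, with 10 of 10 called higher when averaged. Of 8 microglia genes, 3 were called higher, and of the 6 leukocyte genes 3 were. Red blood cell genes gave 2 of 5 called lower, Hba-a1 at -3.02 and Hbb-bt at -2.93.

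Neutrophil and monocyte genes showed no called gene in the 3 sdCAM hemisphere comparisons (0 of 11 and 0 of 7 by edgeR), and their sums were highest and most spread in BLZ945 contralateral. The neutrophil sum was 554 ± 235 CPM in CTL contralateral, 871 ± 591 CPM in CTL ipsilateral, 2159 ± 1338 CPM in BLZ945 contralateral and 839 ± 440.3 CPM in BLZ945 ipsilateral. In the same order the monocyte sum was 270.2 ± 38.5, 484 ± 220.3, 928 ± 581 and 435 ± 219 CPM. The list median of the hemisphere difference was 0.34 in CTL and -2.26 in BLZ945 for neutrophil genes, and 0.95 and -1.21 for monocyte genes. B and plasma cell genes, led by Ighm, gave 2 of 10 called lower when averaged, Ebf1 and Jchain. Of the 10 dendritic cell genes 2 were higher and 1 lower when averaged. Counts of called genes in averaged sdCAM are to be read against the 15% called among all genes. The 5 cell cycle genes gave 0 called, with a sum of 4.42 to 28.8 CPM. In averaged tissue edgeR called 2.01% of all genes. Called higher there were 3 of 7 monocyte genes, 4 of 6 leukocyte genes, 2 of 7 neutrophil genes and 1 of 10 macrophage genes. So were 1 of 10 genes of the neural and glial list and 2 of 9 dendritic cell genes. Called lower there were 1 of 8 B and plasma cell genes, 1 of 9 dendritic cell genes and 2 of 8 microglia genes, and none of 4 red blood cell or 5 cell cycle genes was called. With A3 exchanged, 1 gene of the whole table was called in averaged tissue without the mouse as a block, and 146 when the hemispheres were also paired by mouse. Which of the listed genes were among them was not counted. The part of any of these in the T and NK cell genes was not tested.

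Position is shared by the CD3 chains, which lie together on mouse chromosome 9. In RefSeq on GRCm38.p6 the starts of Cd3d and Cd3g are 1355 bases apart on opposite strands, and Cd3d and Cd3e are 27825 bases apart. In GENCODE M21, Cd3e overlaps Gm48720 on its own strand and Gm48719 on the other, and Lck overlaps Mir8119 on its own strand. Reads in the overlaps on the same strand cannot be told apart by strand, and those shared with Gm48719 could be only in a stranded library, a setting that the sources used here do not give. A promoter entry was found for 8 of the 10 genes, Cd2 and Cd4 aside. The 250 bases before the start of the 3 chains are shown because these genes moved together across libraries. The windows, credited to RefSeq GRCm38.p6 and written 5′ to 3′ on the strand of the gene, are chr9:44981536-44981785 on the plus strand for Cd3d, chr9:45009612-45009861 on the minus strand for Cd3e and chr9:44980432-44980681 on the minus strand for Cd3g. Capitals mark AGGAAG (ETS type) and CAGGTG (E-box), searched on both strands together with TGTGGT (RUNX type) and TATAAA.
Cd3d: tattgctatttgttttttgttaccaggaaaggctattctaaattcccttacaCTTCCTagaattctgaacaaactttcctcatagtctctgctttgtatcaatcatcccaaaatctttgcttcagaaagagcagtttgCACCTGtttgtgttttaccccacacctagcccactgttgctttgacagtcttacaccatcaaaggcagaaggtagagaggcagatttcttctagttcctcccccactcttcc
Cd3e: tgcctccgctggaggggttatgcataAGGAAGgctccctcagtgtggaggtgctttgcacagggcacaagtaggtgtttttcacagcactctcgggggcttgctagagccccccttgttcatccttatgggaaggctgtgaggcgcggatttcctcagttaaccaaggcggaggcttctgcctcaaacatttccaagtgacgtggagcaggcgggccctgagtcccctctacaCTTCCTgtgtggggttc
Cd3g: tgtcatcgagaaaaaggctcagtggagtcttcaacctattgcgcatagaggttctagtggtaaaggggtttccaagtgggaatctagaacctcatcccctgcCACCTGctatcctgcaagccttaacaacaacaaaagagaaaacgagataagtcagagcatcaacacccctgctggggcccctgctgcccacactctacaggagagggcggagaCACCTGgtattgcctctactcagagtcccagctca
Cd3d holds 1 AGGAAG and 1 CAGGTG, Cd3e holds 2 AGGAAG, and Cd3g holds 2 CAGGTG. None of the 3 windows holds TGTGGT or TATAAA, and no marked motif overlaps another. Of 32851 promoter windows of this length, 29.5% hold AGGAAG, 17.2% CAGGTG, 14.05% TGTGGT and 12.4% TATAAA. A match is a description of the letters only.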

How the data were processed

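The authors deposited read counts for 2 tables, whole tissue and sorted sdCAM, both in raw counts per gene, made with bcl2fastq 2.20, STAR 2.7.11a and featureCounts 2.0.8 according to their processing notes, which also name DESeq2 1.46.0. From these counts each table was fitted alone in R 4.3.3 with edgeR 4.0.16 (TMM scaling, quasi-likelihood test, 4 groups of treatment and hemisphere), after removing genes whose counts summed to less than 8 in tissue or 7 in sdCAM. P-values were two-sided and Benjamini-Hochberg adjusted over all genes tested. The members and gene lists were chosen with earlier results of these data known. A3 tissue was read by its labels, which the column names of the table exchange. Genes named in the text are all members and, from each list, some of its called genes (at most 5 by adjusted p) and of its 3 most abundant genes. Others were picked after their values were seen. Correlations used log2 of CPM plus 0.5, for genes with a mean of 1 CPM or more.

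Alternatives were DESeq2 size factors, the DESeq2 1.42.0 Wald test, no low-count filter, filterByExpr, no fold threshold, the mouse as a replicate block, each mouse left out, A3 exchanged (also with the block), all 16 sdCAM libraries, and, added after seeing the data, leukocyte scaling. Because both hemispheres of a mouse come from 1 animal, residual levels were compared between them: their correlation was 0.202 to 0.654 in 8 mice for tissue and 0.0548 to 0.223 in 6 mice for sdCAM. To look for a library deposited more than once, counts of libraries of a group were compared, where repeats of 1 library would give a chi-square per degree of freedom near 1: it was 4.49 to 30.1 in tissue and 35.1 to 139 in sdCAM. The code was tested on simulated data.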

Additional observations from a re-analysis of the deposited data

Results flagged for a closer look

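In CTL contralateral sdCAM, 1 library, A2, stood far from the other 3 for several of the genes. Its level was 37.2 CPM for Cd2 (15.4 to 18.6 CPM in the others), 34.9 CPM for Cd3d (9.71 to 13.7 CPM), 107.5 CPM for Nkg7 (44.4 to 47.3 CPM) and 493 CPM for the 10 genes summed (212 to 257 CPM). In BLZ945 contralateral sdCAM, C2 stood at 68.0 CPM for Nkg7, with 35.8 to 40.1 CPM in the others. In BLZ945 ipsilateral tissue, C2 had a summed CD3 level of 0.567 CPM, from 2 counts of each chain, where the others had 0 counts. Of 43 groups of 4 libraries examined in this way, 6 had such a library, and chance gives about 1 in 20 for independent groups. These groups share libraries, most of the 6 come from A2 contralateral, and the sums contain the single genes. The 6 of 43 therefore cannot show an excess. Without A2, the CTL hemisphere difference was -0.90 for Cd3e and -1.03 for Nkg7, with edgeR adjusted p of 0.451 and 0.197.

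The hemisphere difference of Cd3e and of Gzmb in sdCAM had opposite signs in CTL and BLZ945 mice, in every mouse with both hemispheres. The difference between treatments was 1.42 on the log2 scale for Cd3e and 2.07 for Gzmb, and edgeR's test of it gave an adjusted p of 0.998 for each. Without D1, the mouse with the highest Gzmb, the Gzmb value was 1.18, and the lowest adjusted p over the alternatives was 0.972.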

How the results depend on the processing

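Members called stayed at 0 in all 12 comparisons under each alternative run, except for the averaged sdCAM comparison scaled to 6 leukocyte genes, where the count was 3. By its construction that scaling moved the median of all genes to -0.90. Called by edgeR there were Cd3e at -0.94 (range over alternatives -0.94 to -0.17), Cd8a at -1.18 (-1.18 to -0.27) and Nkg7 at -0.93 (-0.93 to -0.09). With the replicate block (hemispheres paired by mouse) 0 members were called. Of the members' fold changes, none of them called, 77 in sdCAM and 46 in tissue changed sign under an alternative, and 860 and 660 did not; the cause was not tested. Whole-table counts moved more: CTL tissue had 84 genes called and 0 to 185 over the alternatives, with 0 when A3 was exchanged (6 from 220 in BLZ945 and 1 from 381 averaged; 0, 185 and 146 with the replicate block), and CTL sdCAM had 510 called and 139 to 1762. The block was not run for BLZ945 against CTL within a hemisphere, where no mouse is on both sides. Plain totals in place of TMM left 80 of 80 group levels within their spread.

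Depth limits 8 of the 10 genes in tissue, where 6 counts was the most in any library. With 3 or 4 mice a group, the standard errors of the sdCAM fold changes, 0.41 to 1.58 within a treatment, leave differences of that size undecided. Missing ipsilateral libraries of A3 and C2 leave 3 mice for paired comparisons. Bulk libraries do not tell how many T or NK cells were in a sort.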
